A study of Mus musculus with 6 samples.

Results

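The 10 genes described here are markers of dividing cells and components of the DNA replication machinery: Mki67, Top2a, Cenpf, Cdk1, Mcm2, Mcm3, Mcm4, Mcm5, Mcm6 and Pcna. They were chosen by symbol, and all 10 were found once among the 48577 gene rows of each library. Mki67, Top2a and Cenpf, which peak in G2 and mitosis, formed the mitotic set (3 genes). The Mcm genes and Pcna, which act in DNA replication, formed the replication set (6 genes). Cdk1 was kept apart. Mean summed levels of mitotic genes were lower in tdTomato-positive than in tdTomato-negative lung epithelial cells. Those of replication genes, mostly from Pcna and Mcm4, were close in both. The 3 mitotic genes summed to a mean of 28.6 ± 15.5 CPM (the read count relative to library size, scaled with TMM factors) across negative libraries and 6.72 ± 1.01 across positive ones. The 6 replication genes summed to 64.5 ± 6.93 and 71.4 ± 7.61 CPM (SD, n = 3 each). Of these sums, Pcna gave a mean of 39.5 and 43.9 CPM and Mcm4 a mean of 15.7 and 18.9 CPM. edgeR on all 6 libraries, with an expression filter and no mouse term, called no member. Top2a was called lower once the mouse was a term of the model, and Top2a and Mki67 were called lower without the filter.

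The cells came from lungs of Miwi2-tdTomato mice of strain C57BL/6, in which the red fluorescent protein reports Piwil4, the gene for the Piwi protein MIWI2. Digested lung cells without CD45, the leukocyte surface marker, and with the epithelial marker EpCAM were sorted by tdTomato. Each of 3 mice gave 1 negative and 1 positive library, and the RNA was amplified before library preparation. All groups carry the reporter, no treatment is given, and age, sex and the design of the reporter allele are not given in the sources used here.

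Counts in genes ranged from 5330584 to 6326395 per library. The level of 3 reads, which a gene with no read could have, was 0.475 to 0.585 CPM; such floors and the intervals below cover counting error only. The sort was visible in the reads, with tdTomato at 0 reads in all negative libraries and 16 to 37 in the positive ones, and Piwil4 at 30 to 45.6 and 95.7 to 111 CPM. The labels call all cells multiciliated, and 13 multiciliated markers summed to 12100 to 14900 CPM over the 6 libraries. The gates name no marker of cilia, and markers of club and alveolar type 2 cells were also abundant, at 4900 to 21900 and 594 to 8120 summed CPM. The positive library of mouse 1 stood apart from the others on the first principal component of log2 CPM (79.4, the others -35.2 to 7.80). Without it no member was called, and the mean log2 fold change was -2.09 for the mitotic and 0.31 for the tested replication genes, against -2.30 and 0.13 with it.

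Dividing cells license replication origins in G1 by loading the MCM2-7 helicase, a ring of 6 related subunits, onto DNA. In S phase the helicase unwinds the template, and PCNA, a sliding clamp, holds DNA polymerases on it. Transcripts of these genes are switched on by E2F factors at the G1 to S transition, and MCM proteins can persist in cells that have licensed but do not divide. Genes of G2 and mitosis are switched on later, through promoter elements known as cell cycle genes homology regions (CHR), so their transcripts are the closer marker of cells passing through division. Mature multiciliated cells of the airway are post-mitotic, and proteins of the mitotic programme are also used while they form their many centrioles.

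The promoters are shown because the 2 sets are known to be read by different factors. RefSeq windows of 300 bases on GRCm38.p6, 250 of them before the start site, were matched for 9 of the 10 genes; Mcm4 was not matched. CHR letters (TTTGAA or TTCGAA) and E2F letters (TTTCCCGC, TTTGGCGC, TTTCGCGC or TTTGCCGC) were searched on both strands; TTCGAA reads the same on both, and neighbouring E2F matches can overlap. Of all 32851 windows, 19.2% held CHR letters and 2.26% held E2F letters. All 3 mitotic genes held CHR letters and none held E2F letters. Among the 5 replication genes matched, 1 (Mcm2) held CHR letters and 3 (Mcm3, Mcm5 and Mcm6) held E2F letters. Cdk1 held both, and Pcna neither. The match of Cenpf lay after the start site, at bases 3 to 8, as did those of Mcm3, at 20 to 27 and 39 to 46. A match of letters is a description and not a site shown to be bound. The 120 bases before the start site, in the direction of the gene, are given below for the 2 mitotic genes with the largest differences and for Mcm6, the replication gene with the most matches in its window. Capitals mark CHR letters in the first 2 and E2F letters in the last. All 3 genes lie on the minus strand, at chr7:135716380-135716499, chr11:99024190-99024309 and chr1:128359706-128359825.
Mki67: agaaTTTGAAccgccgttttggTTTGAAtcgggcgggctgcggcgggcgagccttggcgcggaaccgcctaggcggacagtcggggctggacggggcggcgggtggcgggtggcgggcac
Top2a: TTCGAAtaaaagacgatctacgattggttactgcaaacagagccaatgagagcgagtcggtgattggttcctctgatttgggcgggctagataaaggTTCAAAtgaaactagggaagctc
Mcm6: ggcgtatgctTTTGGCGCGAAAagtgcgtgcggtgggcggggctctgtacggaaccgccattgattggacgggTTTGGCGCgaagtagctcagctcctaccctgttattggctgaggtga
In Mki67 both CHR matches read in the direction of the gene, 116 and 98 bases before the start. The printed stretch of Top2a begins with TTCGAA at 120 bases before the start, and its capitals nearer the start are TTTGAA read on the other strand. Further CHR letters of Top2a, not printed, begin at positions -179 and -140 from the start. The first capitals of Mcm6 are 2 overlapping E2F matches, 1 on each strand.

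Top2a, which encodes topoisomerase II alpha, the enzyme that untangles sister chromatids before they part, had the largest fitted difference of the 7 members that could be tested. The gene lies on chromosome 11 from 98992943 to 99024189 (GRCm38, GENCODE M21). Negative libraries of mice 1, 2 and 3 held 6.40, 12.5 and 5.65 CPM, from 33, 65 and 29 reads. In the positive libraries it was at 0.338, 1.11 and 1.59 CPM, from 2, 7 and 10 reads. Top2a was kept by the expression filter through the negative libraries alone, where it was high. The fitted log2 fold change of -2.98 ± 0.624 (SE) missed the threshold (edgeR adjusted p = 0.0643), a level 7.90-fold lower. Top2a was lower in 3 of 3 mice, as were 18.8% of all genes tested. With the mouse as a replicate block Top2a fell by 3.01 on the log2 scale, with an SE of 0.610 (edgeR adjusted p = 0.00917). That call was lost without mouse 2 (adjusted p = 0.0995) or mouse 3 (0.0998).

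Mki67 encodes Ki-67, the protein that coats mitotic chromosomes and the usual histological label of cycling cells (chromosome 7, 135689784 to 135716361). Negative libraries of mice 1, 2 and 3 held 11.8, 20.7 and 1.95 CPM (61, 108 and 10 reads). Positive libraries held 1.01, 1.42 and 2.54 CPM (6, 9 and 16 reads). The negative library of mouse 3 lay within the range of the positive libraries, so the groups overlapped. Within mice, log2 CPM in the positive library differed from that in the negative one by -3.16 in mouse 1, by -3.57 in mouse 2 and by 0.33 in mouse 3 (prior count 2). The difference was therefore lower in 2 of 3 mice. The fitted log2 fold change of -2.77 ± 0.746 (SE) was not called (edgeR adjusted p = 0.188, or 0.0804 with the mouse as block). Without the negative library of mouse 3 it was called as lower (log2 fold change -3.28, adjusted p = 0.0425). Without the negative library of mouse 2 it was smaller and not called (-2.04, edgeR adjusted p = 0.728). With the block it was called without mouse 1 (adjusted p = 0.0294) or without mouse 3 (0.0340), and not without mouse 2 (log2 fold change -1.57, adjusted p = 0.438).

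Cenpf, a kinetochore and nuclear matrix protein that accumulates in G2 (chromosome 1, 189640606 to 189688086), differed less. Its levels were 10.1, 10.9 and 5.65 CPM without tdTomato and 4.22, 4.59 and 3.33 CPM with it. The positive library was lower in 3 of 3 mice, as in 18.8% of all genes tested. The fitted log2 fold change of -1.13 ± 0.424 (SE) was not called (edgeR adjusted p = 0.366, or 0.205 with the mouse as block). No alternative tried called it.

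Cdk1, the kinase that drives entry into mitosis, was barely measured. It had 3, 7 and 7 reads across negative libraries against 0, 1 and 8 across positive ones, too few for the expression filter. The ratio of positive to negative reads, scaled by library size, was 0.442 (95% exact binomial interval 0.174 to 1.05). In mouse 3 the levels were 1.36 and 1.27 CPM. A difference was not detectable at this depth.

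**Figure D1:**
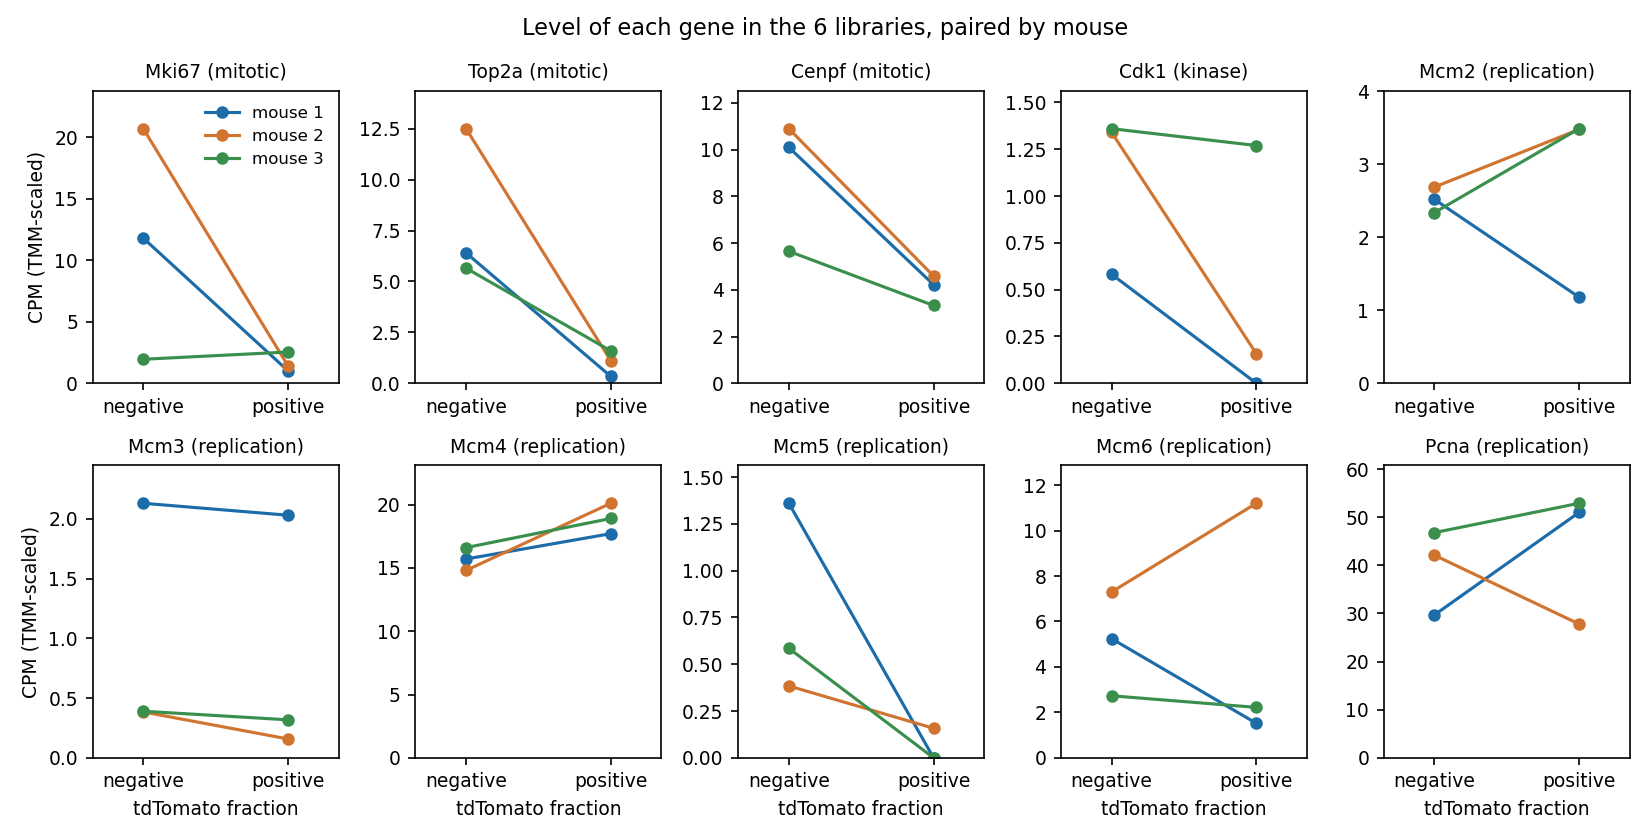
Level of each of the 10 genes in CPM (vertical axis, linear, from 0) in the negative and positive library of each mouse, joined by a line per mouse. Top2a and Cenpf go down in all 3 mice, Mki67 in mice 1 and 2 only, and Mcm4 goes up slightly in all 3.

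Of the replication genes, Pcna and Mcm4 were the best measured. Pcna, the clamp (chromosome 2, 132249162 to 132253314), stood at 29.7, 42.1 and 46.8 CPM without tdTomato and at 51.0, 27.8 and 52.9 CPM with it. The positive library was higher in mice 1 and 3 and lower in mouse 2, and the groups overlapped. Its fitted log2 fold change of 0.15 ± 0.283 (SE) was not called (edgeR adjusted p = 0.883). Reads that match Pcna and a processed pseudogene alike may be missing from it; the pseudogene Pcna-ps2 had at most 7 reads in a library.

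Mcm4, a helicase subunit (chromosome 16, 15623897 to 15637400), had the steadiest level of the 10, its highest library being 1.36 times its lowest. Negative libraries held 15.7, 14.8 and 16.6 CPM, and positive libraries 17.7, 20.1 and 18.9 CPM. Its level was higher in the positive library in 3 of 3 mice, by 1.20-fold in the fit. Of all genes tested, 19.8% were higher in 3 of 3 mice. The log2 fold change of 0.27 ± 0.259 (SE) did not pass the test (edgeR adjusted p = 0.748, or 0.703 with the mouse as block).

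The helicase subunits Mcm2 and Mcm6 went up in some mice and down in others. Mcm2 stood at 2.52, 2.69 and 2.34 CPM without tdTomato and 1.18, 3.48 and 3.49 CPM with it, lower in mouse 1 and higher in mice 2 and 3 (log2 fold change 0.11 ± 0.594, SE; edgeR adjusted p = 0.963). Mcm6 was at 5.24, 7.30 and 2.73 CPM against 1.52, 11.2 and 2.22 CPM. The positive library of mouse 2 held 71 of its 94 positive reads, and Mcm6 was lower in the other mice (log2 fold change -0.02 ± 0.716, SE; edgeR adjusted p = 0.994). The signs of the fitted values of Mcm2, Mcm6 and Pcna each changed under some alternatives, and none of these was ever called.

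Mcm3 and Mcm5 did not pass the expression filter. Mcm3 had 11, 2 and 2 reads without tdTomato against 12, 1 and 2 with it, so both libraries of mouse 1 stood above the other 4 and the ratio was 0.835 (95% exact binomial interval 0.381 to 1.83). Mcm5 had 7, 2 and 3 reads without tdTomato against 0, 1 and 0 with it. Its ratio of positive to negative reads was 0.0696 (95% exact binomial interval 0.00163 to 0.471), the 1 replication gene whose interval lies below 1 among those too low to test. In the fit without an expression filter its fitted log2 difference of -3.39 ± 1.72 (SE) was not called (edgeR adjusted p = 0.526).

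Per kilobase of exon, so that genes can be compared, Pcna was at 16.5 and 18.3 CPM per kb in negative and positive cells and Mcm4 at 4.37 and 5.27. Mki67 was at 1.14 and 0.165, Top2a at 0.908 and 0.112, and Cenpf at 0.577 and 0.262. The remaining Mcm genes lay between 0.194 and 1.09 in negative cells and between 0.0132 and 1.07 in positive cells. Mcm2, Mcm3 and Mcm5 were thus at levels per length below those of all 3 mitotic genes in negative cells, while Pcna and Mcm4 were above them in both fractions.

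The filter kept 7 of the 10 members, the 3 mitotic genes and 4 of the replication genes. Top2a reached the filter's level in all 3 negative libraries and in no positive one, so it was kept through the group in which it was high. Mki67 reached that level in all 3 negative libraries and 1 positive one, and Mcm2 and Mcm6 in all 3 negative and 2 positive ones. Without a mouse term edgeR called 0 of the 7 as lower, where 0.577% of all 13175 genes tested were called lower; limma-voom also called 0. At an unadjusted p under 0.05, 3 of the 7 were lower (Mki67, Top2a and Cenpf), against 5.16% of all genes tested, and none was higher. With the replicate block 1 of the 7 was called lower (1.79% of all genes). DESeq2 called 2 of the 7 lower, Top2a (adjusted p = 0.00100) and Mki67 (0.00797), where it called 1.43% of all genes lower. With the block DESeq2 called the same 2 (adjusted p = 0.00140 and 0.0228), where 2% of all genes were called lower. Without an expression filter edgeR called these 2 of 10 members (adjusted p = 0.000693 and 9.51e-05), where 0.875% of 28108 genes were called lower. No fit of all 6 libraries called a member higher.

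**Figure D2:**
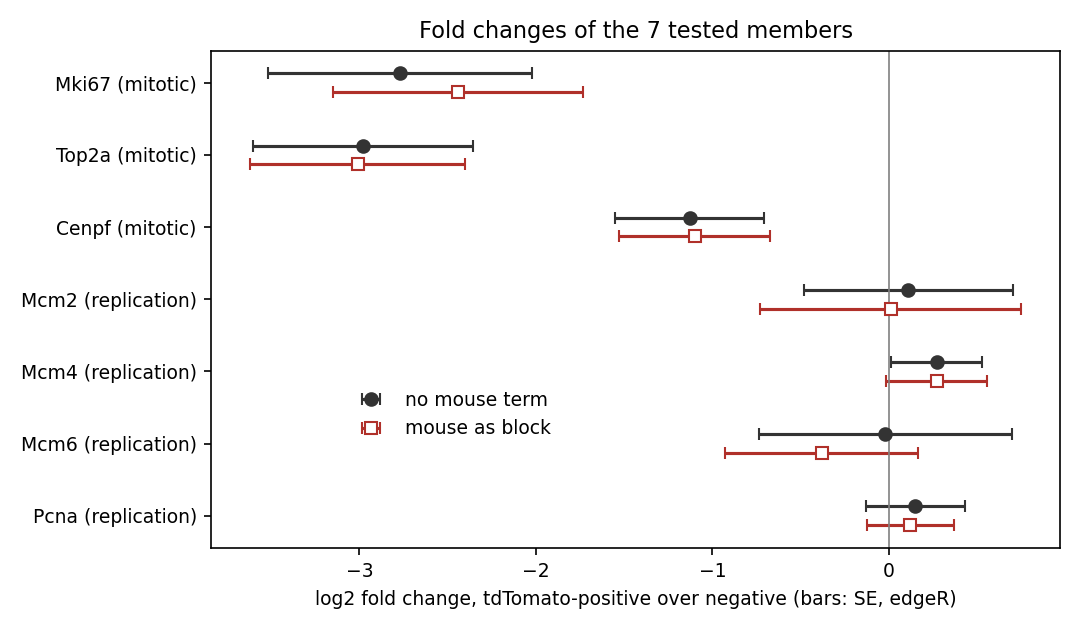
Log2 fold change (tdTomato-positive over tdTomato-negative) of the 7 tested members from edgeR, with SE as bars, without a mouse term (filled circles) and with the mouse as a block (open squares). The 3 mitotic genes lie between -3.01 and -1.10 and the 4 replication genes between -0.38 and 0.27.

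Set side by side, the mitotic genes differed between the fractions by more than the replication genes in every mouse. Relative to 100 CPM of the replication set, the mitotic set was at 50, 65.3 and 19.1 CPM for the negative libraries of mice 1, 2 and 3. In the positive libraries it was at 7.59, 11.3 and 9.59 CPM. Most of the replication sum came from Pcna and Mcm4, so the ratios rest mainly on them. These ratios did not overlap between the fractions, and the negative library was 6.59-fold, 5.78-fold and 1.99-fold above the positive one in mice 1, 2 and 3. The mean log2 difference per gene was -2.55, -2.63 and -0.67 over the 3 mitotic genes and -0.65, -0.05 and -0.16 over all 6 replication genes. The gap between the sets was thus -1.90, -2.59 and -0.51, or -1.67 ± 1.06 (SD, n = 3 mice), and mouse 3 had the smallest. Over the genes that were tested, the mean fitted log2 fold change was -2.30 for the 3 mitotic and 0.13 for the 4 replication genes. The replication mean had the opposite sign over all 6 genes per mouse (-0.28 ± 0.319, SD, n = 3). No test was made of these averages, because the genes were chosen with results of these data known.

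The spread of the mitotic set came from the negative fraction. Negative libraries of mice 1, 2 and 3 summed to 28.3, 44.2 and 13.3 CPM, and positive ones to 5.57, 7.12 and 7.46 CPM. The summed replication genes ran from 56.6 to 69.4 CPM in negative and from 63.0 to 77.8 CPM in positive libraries. In bulk libraries, fewer cycling cells and less of these transcripts per cell cannot be told apart.

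Markers of other cells differed between the fractions for some lists and not for others. Leukocyte markers (16 genes) summed to 115, 145 and 24.8 CPM (negative, mice 1, 2 and 3) and to 43.9, 51.7 and 26.7 CPM (positive). Of these genes, 5 were tested and none was called without a mouse term; Cd3g had no read in any library and Coro1a none in a positive one. Ptprc, which encodes CD45, was at 30.8, 50.7 and 4.87 CPM against 2.20, 9.97 and 2.86 CPM, and was called lower with the replicate block (edgeR adjusted p = 0.00502, against 0.410 without it). The 2 negative libraries rich in leukocyte markers were those rich in Mki67. For mouse 3 (negative against positive library), the leukocyte sum was 24.8 against 26.7 CPM and Ptprc 4.87 against 2.86 CPM. Top2a in this mouse was at 5.65 against 1.59 CPM, Cenpf at 5.65 against 3.33 CPM and Mki67 at 1.95 against 2.54 CPM. A link between leukocyte content and the mitotic genes was not tested.

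Alveolar type 2 markers (12 genes), from cells that can divide to renew the alveolus, summed to 6740 to 8120 CPM in the negative and 594 to 1160 CPM in the positive libraries. Of these genes, 7 of 12 were called lower by edgeR, 9 with the replicate block and none higher. Of all genes tested, 0.577% were called lower, and 1.79% with the block. Basal cell markers (6 genes), from the stem cells of the airway, summed to 10.1 to 17.9 and 1.01 to 2.22 CPM; 1 of the 2 tested, Trp63, had no read in any positive library and was called lower, a call lost without mouse 2 (edgeR adjusted p = 0.138) or mouse 3 (0.111). Both basal genes tested passed the filter through the negative libraries alone. Mesenchymal markers (10 genes) summed to 23.8 to 77.4 and 3.97 to 39.7 CPM with none of 6 tested called, and Tcf21 was at 0 throughout. Erythroid genes (6) summed to 21.6 to 57 and 2.70 to 26.9 CPM, with none of 4 tested called, or 1 lower with the block. Endothelial markers (9 genes) summed to 16.8 to 22.7 and 13.3 to 30.4 CPM with none of 4 tested called, and Cldn5 was at 0 throughout. Alveolar type 1 markers (8 genes) summed to 279 to 344 and 305 to 366 CPM, with none of 7 tested called, or 1 lower with the block. Of the club and multiciliated markers none was called, or 7 of 9 and 3 of 13 higher with the block, where 1.36% of all genes were called higher. The part of these cells in the mitotic difference was not tested.

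**Figure D3:**
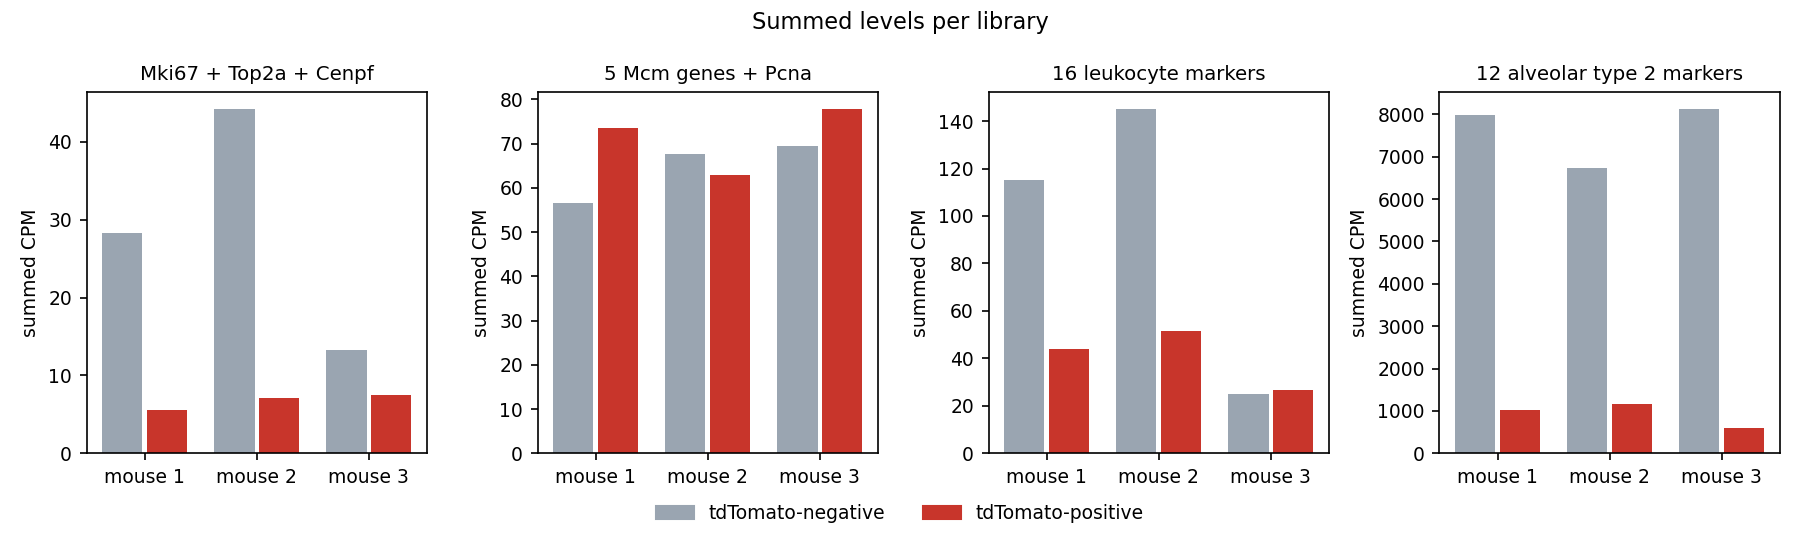
Summed CPM (vertical axis, from 0) in the negative (grey) and positive (red) library of each mouse for the 3 mitotic genes, the 6 replication genes, 16 leukocyte markers and 12 alveolar type 2 markers. The mitotic and leukocyte sums are highest in the negative libraries of mice 1 and 2, while the alveolar type 2 sum is high in all 3 negative libraries.

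The 74 further genes of mitosis summed to 350 to 371 CPM in negative and 232 to 306 CPM in positive libraries. They include cyclins, spindle motors and kinetochore and condensin subunits. Of the 74, 23 had fewer than 10 reads in every library and 26 were tested. Over all 74, 59 had a lower and 15 a higher mean CPM in the positive libraries; among all genes with a read, 56.3% had a lower mean there. The 26 tested genes had a median log2 fold change of -0.58, beside 0.029 for all genes tested, and 11 of them reached the filter's level in all 3 negative but not in all 3 positive libraries, so the median leans to genes high in negative cells. edgeR called 0 of the 26 (at an unadjusted p under 0.05, 5 were lower and none higher). DESeq2 called 1, Aspm, and so did edgeR with the replicate block; Aspm passed the filter through the negative libraries alone.

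Aspm, a spindle pole protein, stood at 4.07, 3.27 and 2.14 CPM without tdTomato and 0.338, 0 and 0.159 CPM with it. Its positive libraries held 3 reads in all against 49, a ratio of 0.0512 (95% exact binomial interval 0.0102 to 0.159; edgeR adjusted p = 0.0710, or 0.0281 with the mouse as block). Leaving out mouse 2 or mouse 3 with the block left 0 mitosis genes called, and leaving out mouse 1 gave 3. Kif11, the kinesin that separates spindle poles, was at 8.92, 9.99 and 7.21 CPM against 1.69, 3.64 and 3.81 CPM (edgeR adjusted p = 0.246, or 0.0915 with the block). Smc4, a condensin subunit, was at 63.8, 76.6 and 57.1 CPM against 43.4, 23.3 and 52.1 CPM (edgeR adjusted p = 0.386, or 0.110 with the block). These 3 were named for their small p with the block, so their being lower in each mouse follows from that choice. Of the 26 tested, 13 were lower in all 3 mice, as were 18.8% of all genes tested. The filter, which tilts the median of this list towards genes high in negative cells, tilts this count too. Bub1, a checkpoint kinase named here after its values were seen, was under the filter at 9, 37 and 42 reads without tdTomato and 4, 2 and 1 with it. Its adjusted p was 0.000693 in edgeR without the filter.

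Genes that load and run the helicase stayed near the level of all genes. Of 13 further licensing genes, 10 were tested, and edgeR called 0 with or without the block. At an unadjusted p under 0.05 without the block 1 passed, and the median log2 fold change was -0.11. Mcm7, the helicase subunit that is no member here, stood at 6.60, 6.72 and 5.46 CPM without tdTomato and 19.4, 5.38 and 8.58 CPM with it. It was highest in the positive library of mouse 1 (edgeR adjusted p = 0.569, or 0.492 with the block). The origin recognition subunits Orc4 and Orc5 had log2 fold changes of -0.55 and -0.61 (edgeR adjusted p = 0.42 and 0.602, or 0.24 and 0.43 with the block).

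Of 51 genes of the replication fork and of nucleotide supply, 32 were tested, and edgeR called 0 with or without the block. At an unadjusted p under 0.05 without the block 1 passed, and the median was 0.04. Without the filter edgeR called 1 licensing or fork gene, Gins1, a subunit of the active helicase named here after its values were seen. Its adjusted p was 0.0196 as higher, with 0, 1 and 0 reads without tdTomato and 42, 0 and 4 with it, nearly all from mouse 1. Over all 51, 22 had a lower and 27 a higher mean CPM in positive cells. The topoisomerases Top2b and Top1, which unlike Top2a are made in resting cells too, were at 293 to 400 against 242 to 331 CPM and at 124 to 129 against 92.9 to 100 CPM (edgeR adjusted p = 0.507 and 0.42, or 0.169 and 0.236 with the block). Tyms, the thymidylate synthase, was at 5.57 to 13.8 against 1.11 to 7.26 CPM (edgeR adjusted p = 0.593, or 0.227 with the block). With the block the edgeR unadjusted p was 0.0143 for Top2b, 0.0264 for Top1 and 0.0247 for Tyms, all lower.

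Among regulators of the step from G1 to S, edgeR with the expression filter and no mouse term called Ccnd2, which encodes cyclin D2. It rose from 29.5, 41.3 and 25.2 CPM to 95.8, 203 and 131 CPM (edgeR adjusted p = 0.00575), where 0.0455% of all genes were called higher. Of the 23 genes of this list tested, 1 was called higher, and 2 with the block, where 1.36% of all genes were called higher; the second was Ccnd1, cyclin D1 (edgeR adjusted p = 0.0768, or 0.00852 with the block). Their median was 0.08. The Ccnd2 call without a mouse term ended on omission of the mouse 1 negative library (edgeR adjusted p = 0.0655), without mouse 1 (0.0545) and without mouse 3 (0.111), and with the block none of these omissions of a mouse ended it.

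Genes of centriole amplification, which share regulators with mitosis, were tested for 14 of 17 listed. edgeR called 0, with or without the block. At an unadjusted p under 0.05, 0 passed without the block, but with it Stil (edgeR unadjusted p = 0.00304) and Plk4 (0.0297) were lower. Their median log2 fold change was -0.01. Plk4, the kinase that starts centriole formation, was at 72.0, 41.3 and 21.3 CPM in negative and 47.6, 34.0 and 13.5 CPM in positive libraries (edgeR adjusted p = 0.773, or 0.251 with the block). Stil, its partner in centriole assembly, was at 3.88, 8.07 and 5.46 against 0.338, 3.64 and 0 CPM (edgeR adjusted p = 0.492, or 0.0744 with the block). DESeq2 called Stil lower with the block (DESeq2 adjusted p = 0.0189) and not without it (0.347). Cep78, a centriolar protein, was at 22.7 to 28.0 against 27.8 to 35.1 CPM (edgeR adjusted p = 0.690, or 0.595 with the block).

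**Figure D4:**
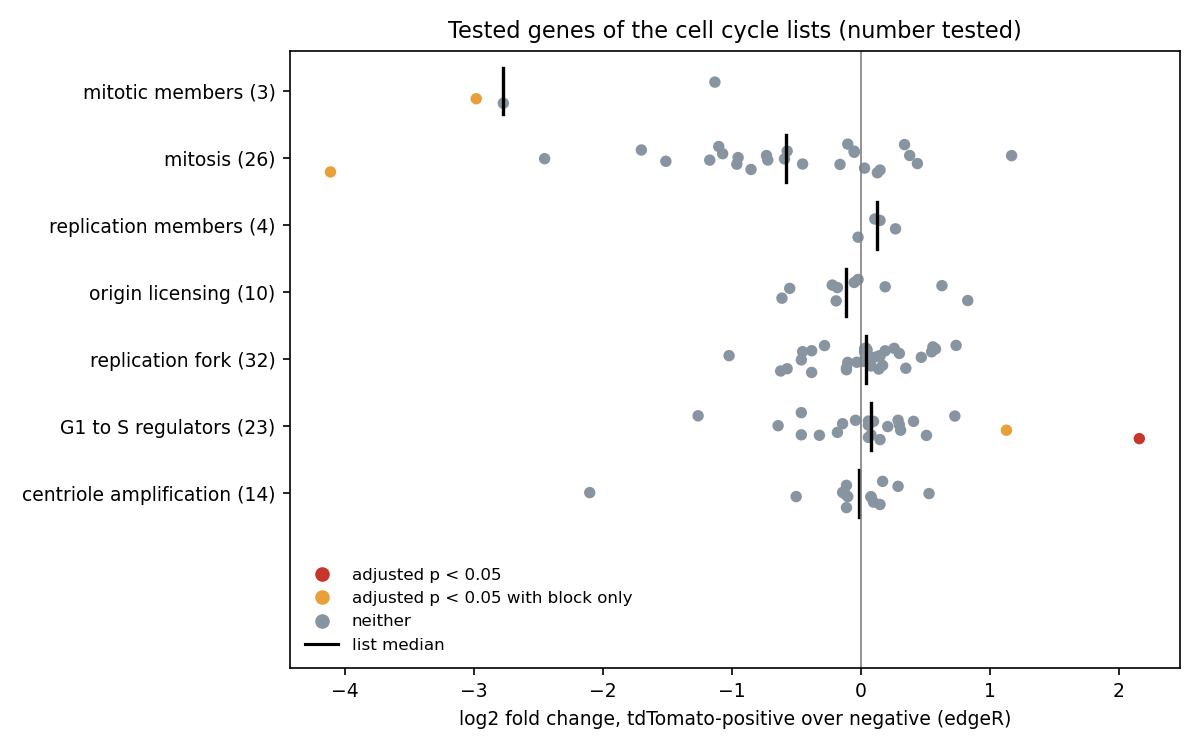
Log2 fold change (tdTomato-positive over tdTomato-negative, edgeR without a mouse term) of each tested gene in 7 cell cycle lists, 1 point per gene with random vertical scatter and a black line at the list median. The mitosis median is -0.58 and the medians of the other wider lists lie between -0.11 and 0.08; Ccnd2 is the gene called in this fit.

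Across the 6 libraries, the genes whose log2 CPM followed the mean of the 3 mitotic genes most closely among 11176 compared were Fam227b, G2e3, Fas, Krt15 and Zc3h7a, at Pearson r of 0.992 to 0.978. Fas, a death receptor, was at 20.8, 25.4 and 13.6 CPM in negative and 7.43, 11.4 and 10.8 CPM in positive libraries, with the mitotic order of negative libraries (mouse 2, then 1, then 3). Krt15, a keratin of basal cells, was at 2.52, 3.46 and 2.14 against 1.01, 1.27 and 1.43 CPM. The mean of the 6 replication genes was followed most closely by Rasa3, Zfp27, Pde12, Hspb6 and Jmjd4 (r of 0.976 to 0.963). This mean of log2 CPM weighs each gene alike, also Mcm3 and Mcm5 with few reads, and differs from the summed level. All 5 genes were highest in the negative library of mouse 1, where the replication sum was lowest, at 56.6 CPM. No gene of either group of 5 was called. These values describe 6 libraries that share mice and library effects, and the highest of many correlations are high by selection.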

How the data were processed

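RNA-seq libraries of sorted mouse lung epithelial cells were compared, 3 tdTomato-negative and 3 tdTomato-positive. The authors deposited whole-number read counts for each gene symbol. Per the submitters' processing notes, the builds were GRCm38.p4 and mm10 and the tools included STAR 2.4.2a, HTSeq, cutadapt 1.7.1, DESeq2 and FastQC; the strand setting is not given in the sources used here. The 5 HTSeq summary rows were left out: 41.0% to 49.4% of counted reads were in no gene, 1.31% to 1.99% were ambiguous and 8.26% to 12.0% aligned to several places.

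The main test was the two-sided quasi-likelihood test of edgeR 4.0.16 (R 4.3.3) with TMM factors, filterByExpr (count minimum 10; 13175 genes kept) and Benjamini-Hochberg adjustment over all genes tested, called under 0.05. SE is the log2 fold change divided by the root of F. Log2 CPM used a prior count of 2. The labels name the same mouse for 2 libraries, so numbers pair them; deviations from group means correlated at 0.263, 0.254 and 0.346 within mice. Alternatives were the mouse as replicate block, DESeq2 1.42.0, limma-voom (limma 3.58.1), other factors and filters, and leaving out each library or mouse. Scripts were tested on simulated data.

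The members, the gene lists and the tests were chosen with earlier results of these data known. Named genes are the members, the called genes of each list (or the 3 with the smallest blocked p), and the 5 genes most like each set whose average log2 CPM reached 1. Exon lengths and positions come from GENCODE M21 and promoters from RefSeq. In the mitosis and centriole lists, 5 genes were matched through older symbols.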

Additional observations from a re-analysis of the deposited data

How the results depend on the processing

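The count of genes called, 82, was 413 without an expression filter, 245 with DESeq2, 415 with the replicate block and 464 with DESeq2 and the block. Omitting a library or a mouse gave 22 to 113, and with the block 633 without mouse 1, 380 without mouse 2 and 59 without mouse 3. The count of members called, 0, was 2 without a filter, 2 with DESeq2, 1 with the replicate block, 2 with DESeq2 and the block, and 0 to 2 when a library or mouse was omitted. The causes were not tested. The mean log2 fold change of replication genes moved from 0.13 to -0.51 without a filter, where Mcm3 and Mcm5 enter it. The stricter filter kept no mitotic gene, so it gave no mitotic mean. In the other alternatives the means of both sets and the gap between them stayed within 1 SD of the mice.

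The sign changed for Mcm6 with library size only (0.28, where the median of all genes moves from 0.029 to 0.286 and the split of calls from 6 higher and 76 lower to 22 and 54), and for Mcm2 with limma-voom (-0.03) and with DESeq2 and the block (-0.01). Omitting a library or a mouse gave -0.16 to 0.47 for Mcm2, -1.43 to 0.40 for Mcm6 and -0.16 to 0.44 for Pcna. Omitting a mouse with the block gave -0.31 to 0.45 for Mcm2 (-0.20 without mouse 2), -1.03 to 0.23 for Mcm6 and -0.22 to 0.47 for Pcna. Mki67, Top2a and Cenpf kept a negative sign in all 19 alternatives, at -3.71 to -1.57, -3.74 to -2.55 and -1.38 to -0.86, and Mcm4 a positive one in all 20. Mki67 was called in 6 of 19 alternatives (adjusted p from 9.51e-05 to 0.728), Top2a in 5 (0.000693 to 0.537). With 1 read worth 0.158 to 0.195 CPM, depth limits Cdk1, Mcm3 and Mcm5 most.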
